A study of Mus musculus with 24 samples.

Results

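The NK-type lectin receptors are surface receptors of natural killer (NK) cells that activated CD8+ T cells also make, and their genes are described here in cultured mouse CD8+ T cells exposed to bile acids. The 6 genes Klrd1, Klrc1, Klrc2, Klrk1, Klre1 and Klrg1 were found by gene symbol among the 24537 genes of the deposited count table, and each matched a single row. The CD8+ T cells had been activated in vitro and then exposed to a bile acid for 24 hours (the treatment protocol says overnight), or left as control. Lithocholic acid (LCA), IsoLCA, IsoAlloLCA, DehydroLCA and UDCA (ursodeoxycholic acid) were used at 50 µM, and the taurine-conjugated acids TCA (taurocholic acid) and TCDCA (taurochenodeoxycholic acid) at 100 µM. Each of the 8 groups held 3 libraries. Mouse strain, age and the means of activation are not given in the sources used here, nor is what separates the 3 libraries of a group, so p-values measure only the spread between these libraries, which may be technical.

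Klrd1 encodes CD94, which pairs with NKG2A, the inhibitory product of Klrc1, or with NKG2C, the activating product of Klrc2, and these pairs read the nonclassical class I molecule Qa-1. Klrk1 encodes NKG2D, an activating homodimer that signals through the adaptor DAP10 (Hcst) or DAP12 (Tyrobp) and binds stress-induced ligands of the H60, Rae-1 and Ulbp1 families. Klre1 encodes a receptor that pairs with Klri1 or Klri2, and Klrg1 encodes an inhibitory receptor for cadherins that is known as a mark of short-lived effector CD8+ T cells.

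All 24 libraries carried between 25998051 and 41024340.5 counts in the exons of genes, which made 75.6% to 84.7% of the library totals in the file header. The T cell genes Cd3d, Cd3e, Cd3g, Cd8a and Cd8b1 summed to between 1812 and 2332 CPM (counts scaled to the TMM-adjusted library total) in every library, while the 7 NK cell markers Ncr1, Klrb1c, Klra4, Klra8, Klra9, Fcer1g and Tyrobp summed to between 1.79 and 4.51 CPM. The levels are averages over a whole culture, in which fewer cells carrying a transcript and less transcript per cell cannot be told apart.

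Of the 6 genes, 5 lie side by side. Klre1 (chr6:129578286-129585827, plus strand), Klrd1 (chr6:129591811-129598775, plus), Klrk1 (chr6:129610323-129622683, minus), Klrc2 (chr6:129656371-129660556, minus) and Klrc1 (chr6:129666016-129678973, minus) span 100688 bases of the mm10 genome. The only other counted gene inside that span was Klrc3. Klrg1 (chr6:122270597-122282833, minus) lies 7295452 bases away on the same chromosome. No exon of the 6 genes overlapped an exon of another gene, but 40.3% of the 50-base words of the Klrc1 transcript and 41.5% of those of Klrc2 also occurred in another transcript, from Klrc1, Klrc2 or Klrc3. Reads may therefore have been divided between these 3 genes, and the values of Klrc1 and Klrc2 are uncertain for that reason. The transcripts searched for the other members shared no such word. For Klrk1 the transcript searched had 1270 bases against a counted length of 3262 bases, so the counted sequence was not searched in full.

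RefSeq start-site windows of 300 bases (250 before and 50 after the start, GRCm38.p6) were matched for 4 of the 6 genes. They are shown because these neighbouring genes all rose with IsoAlloLCA in the results that follow, and capitals mark matches to motifs of factors active in T cells, searched on both strands. The motifs were Runx (TGTGGT, read as ACCACA on the other strand), AP-1 (TGANTCA), T-box (TCACACC), NR4A (AAAGGTCA) and forkhead (TGTTTAC). Each sequence runs 5′ to 3′ along the gene's own strand.
Klrc1, chr6:129678924-129679223, minus strand: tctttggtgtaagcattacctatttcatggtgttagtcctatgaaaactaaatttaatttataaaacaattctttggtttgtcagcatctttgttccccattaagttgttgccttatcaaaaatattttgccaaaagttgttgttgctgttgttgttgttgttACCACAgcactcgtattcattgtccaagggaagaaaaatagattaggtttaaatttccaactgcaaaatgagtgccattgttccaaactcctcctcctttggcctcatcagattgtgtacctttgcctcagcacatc
Klrc2, chr6:129660507-129660806, minus strand: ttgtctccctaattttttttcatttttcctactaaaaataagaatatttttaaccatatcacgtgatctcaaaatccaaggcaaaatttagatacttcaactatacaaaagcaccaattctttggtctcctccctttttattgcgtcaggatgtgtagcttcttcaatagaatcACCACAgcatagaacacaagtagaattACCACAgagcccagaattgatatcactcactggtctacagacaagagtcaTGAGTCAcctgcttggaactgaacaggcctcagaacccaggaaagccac
Klrk1, chr6:129623815-129624114, minus strand: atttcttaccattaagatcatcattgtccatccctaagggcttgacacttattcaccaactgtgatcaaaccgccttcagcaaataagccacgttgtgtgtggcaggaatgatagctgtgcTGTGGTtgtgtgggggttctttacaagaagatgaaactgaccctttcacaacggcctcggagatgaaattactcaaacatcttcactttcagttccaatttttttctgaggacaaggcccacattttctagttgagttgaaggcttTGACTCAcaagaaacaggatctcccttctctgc
Klre1, chr6:129578036-129578335, plus strand: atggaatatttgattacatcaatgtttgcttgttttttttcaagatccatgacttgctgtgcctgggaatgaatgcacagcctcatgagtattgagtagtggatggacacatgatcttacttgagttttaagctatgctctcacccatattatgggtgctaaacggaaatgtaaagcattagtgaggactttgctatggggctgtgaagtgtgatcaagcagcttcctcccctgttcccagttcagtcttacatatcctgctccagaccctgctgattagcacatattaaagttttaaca
The Runx motif was present in the windows of Klrc1 (once), Klrc2 (at 2 places) and Klrk1 (once), against 16.8% of 32851 windows in the table. AP-1 was present in Klrc2 and Klrk1, against 7.81% of windows. No T-box, NR4A or forkhead motif (3.98%, 1.51% and 3.65% of windows) was in any of the 4, and the Klre1 window held none of the 5 motifs. The start used for Klrk1 lies 1181 bases from that of the counted transcript, while the other 3 starts coincided with it. The windows of Klre1 and Klrk1 did not hold the first bases of a GENCODE transcript of the gene. Klre1 and Klrc2 each had 2 windows, of which only the nearest to the counted start was searched. A match is a description of the letters, not of a bound site.

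IsoAlloLCA raised all 5 testable receptor genes, from 1.57-fold for Klrk1 to 3.17-fold for Klrd1, and the levels of its 3 libraries did not overlap those of any other library of the series. The share of all tested genes separated in that way was not counted, so the separation cannot be called particular to these genes. The question of this comparison is what the acid does to the T cells' transcripts relative to untreated cells. Over all 13044 genes tested, 30.6% were called higher in this comparison (edgeR quasi-likelihood test, Benjamini-Hochberg adjusted p under 0.05), and the median log2 change was 0.03, against a median of 1.32 for the 5 receptor genes. The sixth gene, Klrg1, was too scarce to be tested. Over all 8 groups the 5 tested genes each differed between groups (edgeR adjusted p from 7.11e-16 for Klrd1 to 2.48e-06 for Klrc2), as did 76.2% of all tested genes.

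Klrd1, the subunit shared by both CD94 receptors, stood at 44.7, 43.1 and 41.1 CPM in the 3 control libraries and at 126, 151 and 132 CPM with IsoAlloLCA. The control libraries were close together, and the lowest IsoAlloLCA library lay far above all of them. The log2 change was 1.67 ± 0.08 (SE, n = 3 libraries a group, edgeR adjusted p = 5.64e-15). In the other 6 treated groups the means lay between 43.9 and 50.3 CPM, and each group's range overlapped that of its neighbour in the order.

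Klrc1, whose product is the inhibitory partner of CD94, was counted at 16.7, 16.6 and 17.3 CPM in control cells and at 40.7, 44.4 and 37.5 CPM with IsoAlloLCA. Every IsoAlloLCA library was above every other library. Its log2 change was 1.28 ± 0.07 (SE, n = 3 a group, edgeR adjusted p = 1.46e-13), a 2.42-fold difference. Klrc2, the activating partner, was far scarcer, at 1.18, 0.868 and 1.41 CPM in control and 2.51, 3.56 and 3.125 CPM with IsoAlloLCA. Its replicates spread more, with a coefficient of variation of 23.6% among control libraries, yet the groups did not overlap. The log2 change was 1.40 ± 0.19 (SE, n = 3 a group, edgeR adjusted p = 1.05e-06).

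Klrk1, the gene for NKG2D, was the member with most counts, at 169.5, 166 and 167 CPM in control and 272, 261 and 255 CPM with IsoAlloLCA. It changed least of the 5 (log2 0.65 ± 0.04, SE, n = 3 a group, edgeR adjusted p = 2.29e-12), and its interval of 0.56 to 0.74 did not reach that of any of the other 4 genes. Klre1 was counted at 1.05, 1.15 and 1.38 CPM in control and at 3.14, 3.24 and 2.53 CPM with IsoAlloLCA. These groups did not overlap either, and the log2 change was 1.32 ± 0.15 (SE, n = 3 a group, edgeR adjusted p = 4.61e-08).

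Klrg1 had 103 counts in all 24 libraries together, from 1.5 to 8.5 in a library. Its 3 libraries summed to 12.5 counts in control and 20.5 with IsoAlloLCA, and the IsoAlloLCA range of 0.149 to 0.260 CPM overlapped the range of 0.0572 to 0.240 CPM in the other 21. A difference in this gene was not detectable at this depth against control. With no filter on low counts it could be tested, and then it was called higher with IsoAlloLCA than with IsoLCA only.

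**Figure D1:**
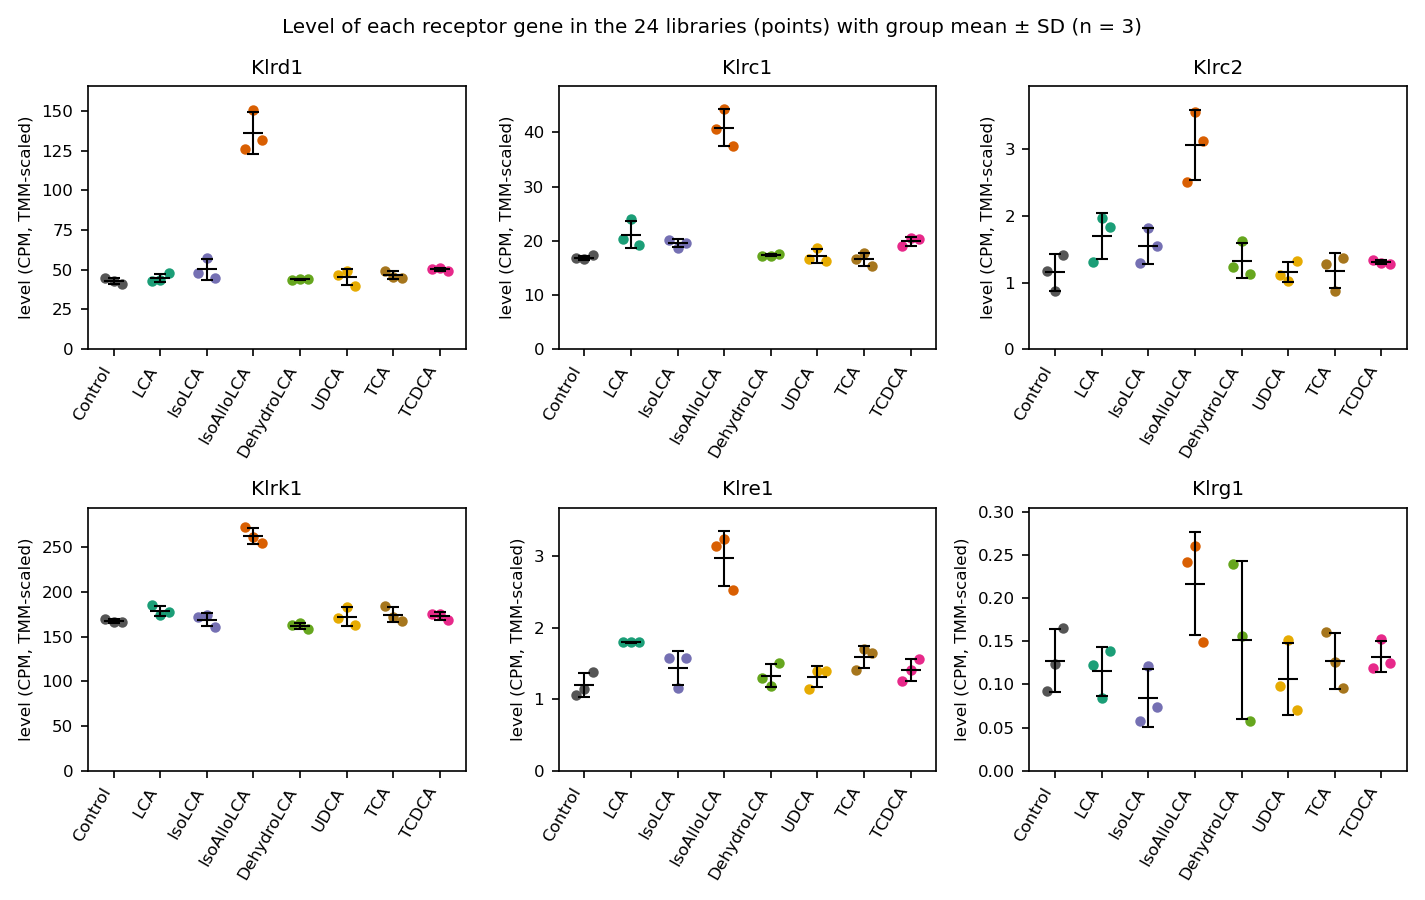
Level of each receptor gene in CPM (vertical axis, linear, from 0, a separate scale for each gene) in the 8 groups, with 1 point for each of the 3 libraries and the mean ± SD. The IsoAlloLCA points are above all other points for Klrd1 (126 to 151 CPM), Klrc1, Klrc2, Klrk1 and Klre1, and overlap other groups for Klrg1.

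Other values moved with this group, in a comparison where 30.6% of all tested genes were called higher and 27.8% lower. The summed NK cell markers were 4.02 to 4.51 CPM with IsoAlloLCA against 1.99 to 2.39 CPM in control, and of the 4 NK markers abundant enough to test, 3 rose (Tyrobp, Klrb1c and Fcer1g) while Ncr1 (log2 0.65 ± 0.34) did not pass the test. None of the 7 was at 0 in either group, and 5 of the 7 also belong to the lists of adaptors or other lectin genes given further on. Summed CD4+ T cell markers (Cd4, Foxp3, Cd40lg) were 11 to 11.98 CPM against 9.39 to 9.97 CPM, with 2 of 3 higher, and summed CD8+ T cell markers were 2106 to 2332 CPM against 1874 to 1905 CPM, with 3 of 5 higher (with RLE scaling 3 higher and Cd8a lower). Summed myeloid markers (Csf1r, Lyz2, Cd14, Itgam, Adgre1, Itgax) were 1.27 to 1.49 CPM against 0.608 to 1.02 CPM, with 1 of 2 tested higher and Csf1r at 0 in control. The B cell gene Cd79b was lower with IsoAlloLCA, at 3.33 to 4.50 CPM against 5.27 to 5.77 CPM in control (log2 -0.45 ± 0.11), and Cd79a, its partner in the B cell receptor, did not pass the test (0.47 ± 0.42). The share of the library total counted in exons was lowest with IsoAlloLCA, at 78.3% ± 2.78 (SD, n = 3), against 82.6% ± 1.37 (SD, n = 3) in control. Their part in the results was not tested.

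LCA raised 3 of the 5 tested genes, by less than IsoAlloLCA in fitted size. Klre1 was 1.497-fold higher (log2 0.58 ± 0.16, SE, n = 3 a group, edgeR adjusted p = 0.00546), Klrc2 1.45-fold (0.54 ± 0.21, 0.0444) and Klrc1 1.25-fold (0.32 ± 0.07, 0.00125). Against these 3 calls, 17.7% of all tested genes were called higher with LCA. Klrk1 (0.10 ± 0.04, edgeR adjusted p = 0.0747) and Klrd1 (0.06 ± 0.08, adjusted p = 0.594) did not pass the test, and the 95% interval for Klrd1 was -0.11 to 0.22. The LCA libraries held 20.3, 23.9 and 19.3 CPM of Klrc1, all above the 3 control libraries. For Klre1 they held 1.794, 1.794 and 1.803 CPM, again all above control and closer together than any other group of this gene. For Klrc2 they held 1.30, 1.96 and 1.83 CPM, and the lowest of these lay under the highest control library. The Klrc2 call was lost in 6 of 14 other settings, among them without control replicate 1 or 2 and without LCA replicate 2 or 3, with edgeR or DESeq2 adjusted p between 0.0655 and 0.210. The summed NK markers were 2.52 to 2.94 CPM with LCA, above the control range, with 1 of the 4 tested markers (Fcer1g) higher. Cd79b was lower with LCA (log2 -0.54 ± 0.11). These shifts were not particular to LCA. The NK marker sums with DehydroLCA and TCDCA also lay wholly above the control range, while those with IsoLCA, TCA and UDCA overlapped it. Every IsoLCA and DehydroLCA library held less Cd79b than every control library. No NK or B cell marker was called in those comparisons with control. The part of these markers in the LCA result was not tested.

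TCDCA raised Klrc1 alone among the 5, to 18.97, 20.4 and 20.2 CPM (log2 0.23 ± 0.08, SE, n = 3 a group, edgeR adjusted p = 0.0383), where 5.08% of all tested genes were called higher. All 3 libraries were above control. The call was lost when any one of the 6 libraries was left out, with adjusted p from 0.0543 to 0.130. Klrd1 had the same fitted change (0.23 ± 0.08) with an edgeR adjusted p of 0.0620, and its TCDCA libraries at 50.7, 50.8 and 49.3 CPM were likewise all above control.

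None of the 5 tested genes was called with IsoLCA, DehydroLCA, UDCA or TCA against control. In these comparisons edgeR called 9.84%, 5.83%, 19.9% and 0.437% of all genes in either direction. At an unadjusted p under 0.05 the receptor genes counted were 2 with IsoLCA, 0 with DehydroLCA, 0 with UDCA and 1 with TCA, and DESeq2 called 0 in each. With IsoLCA the changes nearest the threshold were those of Klrd1 (0.22 ± 0.08, edgeR adjusted p = 0.0811) and Klrc1 (0.21 ± 0.07, 0.0799). IsoLCA replicate 2 had the highest Klrd1 level of that group, 57.7 CPM, against 48.2 and 44.8 CPM in the others. Without IsoLCA replicate 3, the lowest of them, Klrd1 was called (log2 0.30, adjusted p = 0.0238). With TCA the gene nearest to a call was Klre1 (0.40 ± 0.17, adjusted p = 0.449). With DehydroLCA the 95% intervals of the better counted genes ran from -0.13 to 0.20 for Klrd1, -0.12 to 0.19 for Klrc1 and -0.14 to 0.04 for Klrk1. With UDCA they ran from -0.09 to 0.25, -0.13 to 0.19 and -0.04 to 0.13 for the same genes. Those of Klrc2 and Klre1 were wider, up to 0.65 for Klrc2 with DehydroLCA. All 7 comparisons with control rest on the same 3 control libraries.

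**Figure D2:**
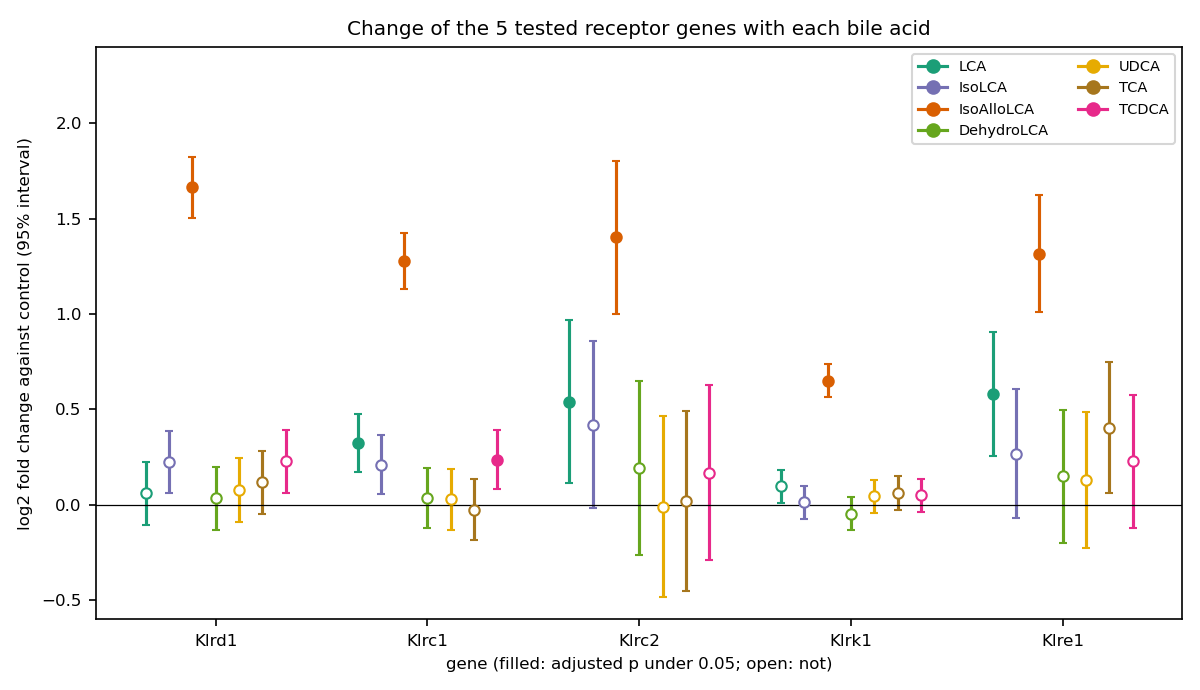
Log2 change of each tested receptor gene against control (vertical axis) for the 7 bile acids, with 95% intervals derived from the edgeR F statistic. The fit used all 24 libraries, 3 a group. Filled points passed an adjusted p under 0.05 and open points did not, and the IsoAlloLCA points (0.65 to 1.67) lie above those of all other acids for each gene.

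Pairs of acids at equal dose were then compared, each pair differing by a single change in structure. The 5 pairs were tested over all genes, and p-values were adjusted over the 13044 genes of each pair. IsoAlloLCA and IsoLCA differ in the orientation of the hydrogen at the junction of the first and second rings. Between them all 5 genes were higher with IsoAlloLCA, where 31.7% of all genes were called higher. The log2 differences were 1.44 ± 0.08 for Klrd1, 1.07 ± 0.07 for Klrc1, 1.05 ± 0.14 for Klre1, 0.98 ± 0.18 for Klrc2 and 0.64 ± 0.04 for Klrk1 (SE, n = 3 a group). Their edgeR adjusted p ranged from 6.15e-14 for Klrd1 to 5.45e-05 for Klrc2.

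IsoLCA and LCA, which differ in the orientation of the A-ring hydroxyl, gave 0 calls with edgeR and with DESeq2 among the 5 genes, 2 at an unadjusted p under 0.05, and 30.3% calls in either direction over all genes. The 95% intervals of IsoLCA over LCA were 0.00 to 0.33 for Klrd1, -0.26 to 0.03 for Klrc1, -0.52 to 0.28 for Klrc2, -0.17 to 0.00 for Klrk1 and -0.63 to -0.00 for Klre1. Those of Klrc1, Klrc2 and, narrowly, Klrk1 (upper end 0.0026) held differences in either direction. The missed threshold does not show that the acids act alike. Without IsoLCA replicate 3 Klrd1 was called higher (log2 0.24, edgeR adjusted p = 0.0311).

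DehydroLCA carries a ketone where LCA carries that hydroxyl. With DehydroLCA 2 of the 5 genes were lower, Klrc1 (log2 -0.29 ± 0.07, edgeR adjusted p = 0.00768) and Klrk1 (-0.14 ± 0.04, 0.0189), where 7.49% of all genes were called lower. The DehydroLCA libraries held 17.3, 17.1 and 17.5 CPM of Klrc1, all under the 3 LCA libraries. For Klrk1 they held 163, 165 and 158 CPM against 185, 174 and 178 CPM, and these groups did not overlap either. Klre1 fell short of the threshold (-0.43 ± 0.16, adjusted p = 0.0544). Without LCA replicate 2 the Klrc1 call was lost (-0.19, adjusted p = 0.0955), and the Klrk1 call was lost without LCA replicate 1 or DehydroLCA replicate 1 or 3 (adjusted p 0.0527 to 0.0774).

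UDCA has an additional hydroxyl relative to LCA. With UDCA 2 genes were lower, Klrc1 (log2 -0.30 ± 0.07, edgeR adjusted p = 0.00407) and Klre1 (-0.45 ± 0.16, 0.0355), where 12% of all genes were called lower. Klrc1 was at 16.7, 18.6 and 16.2 CPM and Klre1 at 1.14, 1.39 and 1.40 CPM with UDCA, in both cases under every LCA library. Klrc2 (-0.55 ± 0.21, adjusted p = 0.0568) was near the threshold. The Klrc1 call was lost without LCA replicate 2 (-0.20, adjusted p = 0.0548), and the Klre1 call was lost in 8 of 14 other settings (adjusted p 0.0521 to 0.152), among them leaving out any one LCA library or UDCA replicate 1 or 2.

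TCA and TCDCA, both conjugated to taurine and both at 100 µM, differ in a hydroxyl that TCA has in addition. No receptor gene was called by edgeR between them, against 3.61% of all genes in either direction, 1 had an unadjusted p under 0.05 and DESeq2 called that 1, Klrc1 (adjusted p = 0.0364). In edgeR, Klrc1 was at log2 -0.26 ± 0.08 for TCA over TCDCA (adjusted p = 0.0540). The TCA libraries held 16.6, 17.7 and 15.4 CPM, all under the TCDCA libraries. The other 4 intervals included 0, as for Klrk1 at -0.08 to 0.10.

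Levels were next set against one another per length of transcript, in CPM per kilobase (RPKM), with the lengths listed in the count table. In control cells Klrk1 (51.3 ± 0.559 RPKM, SD, n = 3) and Klrd1 (50.1 ± 2.10) stood close with these lengths, Klrc1 was at 8.55 ± 0.185, Klrc2 at 1.62 ± 0.382, Klre1 at 1.32 ± 0.187 and Klrg1 at 0.0940 ± 0.0269 RPKM. With IsoAlloLCA Klrd1 was at 159 ± 15.3 RPKM, Klrk1 at 80.6 ± 2.65 RPKM and Klrc1 at 20.7 ± 1.73 RPKM. The order of Klrk1 and Klrd1 depends on the length taken for Klrk1, which is 3262 bases in the table and 1270 bases for a GENCODE transcript of the gene. With GENCODE lengths Klrk1 stood above Klrd1 in both groups, at 131.9 ± 1.45 against 48.0 ± 2.01 RPKM in control and at 207 ± 6.80 against 152 ± 14.6 RPKM with IsoAlloLCA (SD, n = 3 each).

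Within a library, the ratio of the Klrk1 level to that of Klrd1 was 1.03 ± 0.0378 (SD, n = 3) in control and 0.512 ± 0.0570 with IsoAlloLCA. The IsoAlloLCA libraries lay between 0.455 and 0.569, and the other 21 between 0.796 and 1.13. With GENCODE lengths the same ratio was 2.75 ± 0.101 in control and 1.37 ± 0.152 with IsoAlloLCA. Klrc1 relative to Klrk1 went the other way, from 0.167 ± 0.00413 in control to 0.257 ± 0.0207 with IsoAlloLCA (0.243 to 0.281, others 0.149 to 0.227). The ratio of the inhibitory partner Klrc1 to the shared subunit Klrd1 was 0.171 ± 0.0106 in control, 0.131 ± 0.00861 with IsoAlloLCA and 0.206 ± 0.0325 with LCA. The IsoAlloLCA libraries at 0.124 to 0.140 were just under all others, which began at 0.141. The ratio of the activating partner Klrc2 to Klrd1, 0.0325 ± 0.00859 in control and 0.0271 ± 0.00260 with IsoAlloLCA, overlapped between the groups. These ratios describe unequal changes of the genes and were not tested. Those with Klrc1 or Klrc2 carry the uncertainty of divided reads given above.

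**Figure D3:**
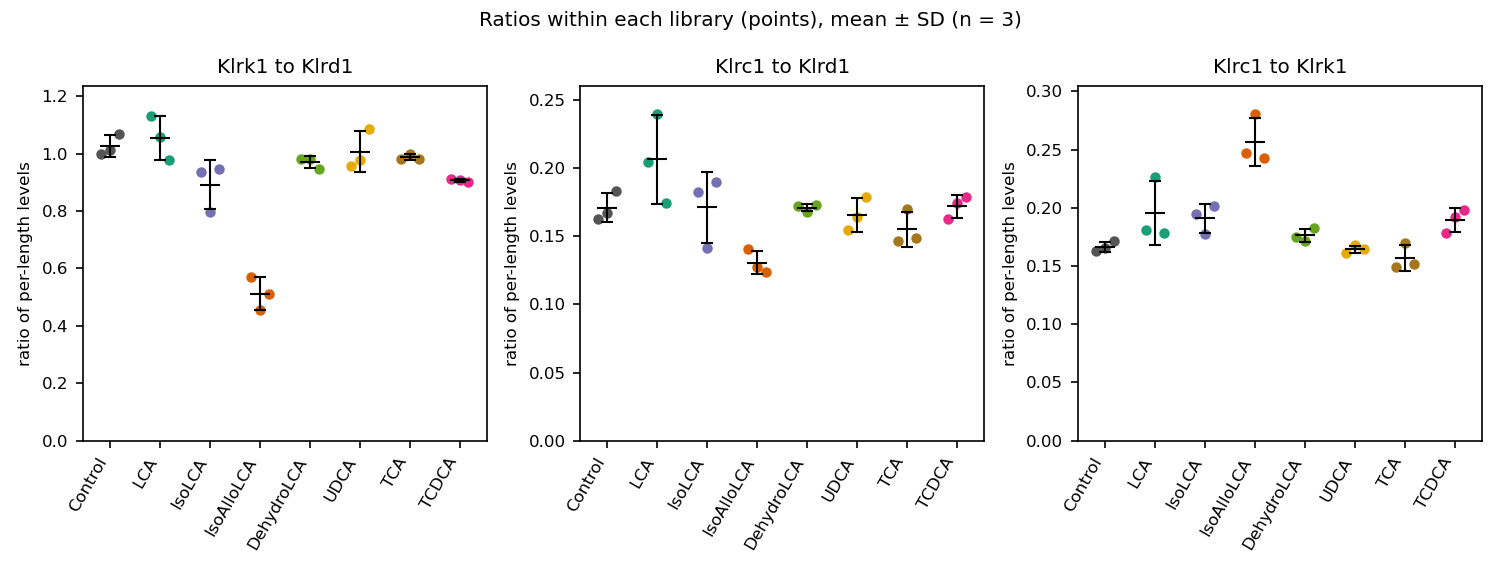
Ratio of per-length levels between pairs of receptor genes within each library (vertical axis, linear, from 0) in the 8 groups, with 1 point a library and the mean ± SD of 3. The IsoAlloLCA points of Klrk1 to Klrd1 lie at 0.455 to 0.569, under all others, and those of Klrc1 to Klrk1 lie at 0.243 to 0.281, above all others.

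The genes these receptors work with moved in both directions under IsoAlloLCA. Of 12 adaptors and proximal kinases, 3 were higher, 5 lower and 4 not called, with a median log2 change of -0.07. Of all tested genes 30.6% were called higher and 27.8% lower. Hcst, the DAP10 adaptor of NKG2D, rose from 6.62 ± 0.397 to 10.3 ± 0.452 CPM (SD, n = 3 each, log2 0.63 ± 0.08 SE, edgeR adjusted p = 3.41e-07). Tyrobp, the DAP12 adaptor of CD94 with NKG2C, rose at a very low level, from 0.337 to 0.647 CPM (log2 0.97 ± 0.31). Lcp2, which encodes the scaffold SLP-76, also rose (0.29 ± 0.03). Those that fell did so slightly, the scaffold Grb2 (-0.23 ± 0.03), the kinase Lck (-0.21 ± 0.04), the phosphoinositide kinase subunit Pik3r1 (-0.16 ± 0.04), the exchange factor Vav1 (-0.10 ± 0.04) and the kinase Fyn (-0.08 ± 0.04, edgeR adjusted p = 0.0489). The kinases Zap70 (0.04 ± 0.03) and Syk (-0.50 ± 0.30) and the phospholipases Plcg1 (0.07 ± 0.05) and Plcg2 (-0.06 ± 0.05) did not pass the test. With scaling by total counts alone 5 of the 12 were higher and 3 lower, since Zap70 and Plcg1 were then called higher and Vav1 and Fyn were no longer called.

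Of the 3 phosphatases that act downstream of inhibitory receptors, Inpp5d (SHIP-1) fell from 142.9 ± 2.30 to 103 ± 5.44 CPM (log2 -0.47 ± 0.04, edgeR adjusted p = 1.37e-10). Ptpn11 (SHP-2) fell by 0.17 ± 0.04 on the log2 scale, and Ptpn6 (SHP-1) rose by 0.12 ± 0.04. Under LCA none of the 3 was called by edgeR. With LCA, where 17.7% of all tested genes were called higher and 18.8% lower, 1 of the 12 adaptors and kinases was higher (Vav1, 0.15 ± 0.04). The 3 that were lower were Pik3r1 (-0.30 ± 0.04), Lck (-0.11 ± 0.04) and Grb2 (-0.08 ± 0.03). Of these 3 only Pik3r1 was called lower with total-count scaling, where Ptpn11 was called higher. Hcst did not pass the test with LCA (-0.16 ± 0.09, edgeR adjusted p = 0.139) and was lower with UDCA (-0.35 ± 0.09, adjusted p = 0.00583).

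The list of ligands held 13 genes, of which H60a had no row in the table and 4 were abundant enough to test. With IsoAlloLCA 3 of the 4 were higher, where 30.6% of all tested genes were. Ulbp1, a ligand of NKG2D, rose from 35.0 ± 1.32 to 62.7 ± 2.89 CPM (log2 0.84 ± 0.05 SE, n = 3 a group, edgeR adjusted p = 2.82e-13). H2-T23, the Qa-1 ligand of the CD94 receptors, rose from 110.9 ± 3.39 to 137 ± 3.85 CPM (0.30 ± 0.05), and was lower with IsoLCA (-0.24 ± 0.05, edgeR adjusted p = 0.00432) and TCDCA (-0.22 ± 0.05, 0.00851). H60b, another NKG2D ligand, was scarce, between 0.0930 and 0.186 CPM in control and between 0.363 and 1.01 CPM with IsoAlloLCA (2.20 ± 0.47). Ulbp1 was also higher with LCA (0.18 ± 0.05), IsoLCA (0.18 ± 0.05) and DehydroLCA (0.17 ± 0.05), and lower with UDCA (-0.25 ± 0.05). Cdh1, which encodes the Klrg1 ligand E-cadherin, followed another pattern. It was not called with IsoAlloLCA (0.21 ± 0.15, edgeR adjusted p = 0.239), and was higher with IsoLCA (0.84 ± 0.14), DehydroLCA (0.85 ± 0.14), TCA (0.68 ± 0.14) and TCDCA (0.75 ± 0.14).

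Among 27 other lectin genes, of which Klrh1 had no row in the table, 14 were tested, and 10 were higher and 0 lower with IsoAlloLCA, with a median log2 change of 1.02. Most of these genes are scarce. Over the 3023 tested genes whose mean was under 4 CPM, 30.1% were higher and the median was 0.25. Cd69, an activation marker that limits exit from tissue, rose from 50.2 ± 1.26 to 140.5 ± 18.3 CPM (log2 1.49 ± 0.06 SE, n = 3 a group, edgeR adjusted p = 8.88e-16). Klrb1b, an inhibitory receptor of the NKR-P1 family, rose from 0.231 to 1.36 CPM (2.58 ± 0.33), and Klra7, of the Ly49 family, from 0.566 to 1.96 CPM (1.79 ± 0.22). The neighbouring Klrc3 also rose (0.96 ± 0.34, 0.393 to 1.13 CPM against 0.331 to 0.403 CPM) and may be subject to the same possible division of reads as Klrc1 and Klrc2. With LCA 3 of the 14 were higher (Clec12a, 1.13 ± 0.26, Klri2, 0.98 ± 0.19, and Cd69, 0.57 ± 0.06) and 1 lower (Klra5, -1.07 ± 0.29). Of all tested genes 17.7% were called higher and 18.8% lower with LCA. Klri2, whose product pairs with that of Klre1, rose with IsoAlloLCA too (1.57 ± 0.18).

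Of 11 transcription factors known in effector and memory CD8+ T cells, 4 were higher, 5 lower and 2 not called with IsoAlloLCA, where 30.6% of all tested genes were higher and 27.8% lower. Tbx21, the gene for T-bet, fell from 49.3 ± 1.22 to 26.4 ± 1.25 CPM (log2 -0.90 ± 0.06 SE, n = 3 a group, edgeR adjusted p = 2.00e-12). Eomes, a second T-box factor, fell from 26.2 ± 0.837 to 14.6 ± 0.988 CPM (-0.84 ± 0.08). Bach2, a repressor of effector genes, rose from 46.95 ± 3.8 to 108 ± 11.4 CPM (1.199 ± 0.08). With LCA 1 of the 11 was higher and 6 were lower, against 17.7% and 18.8% of all tested genes, among them Tbx21 (-0.24 ± 0.06) and Eomes (-0.25 ± 0.08), and with total-count scaling 2 were higher and 3 lower.

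**Figure D4:**
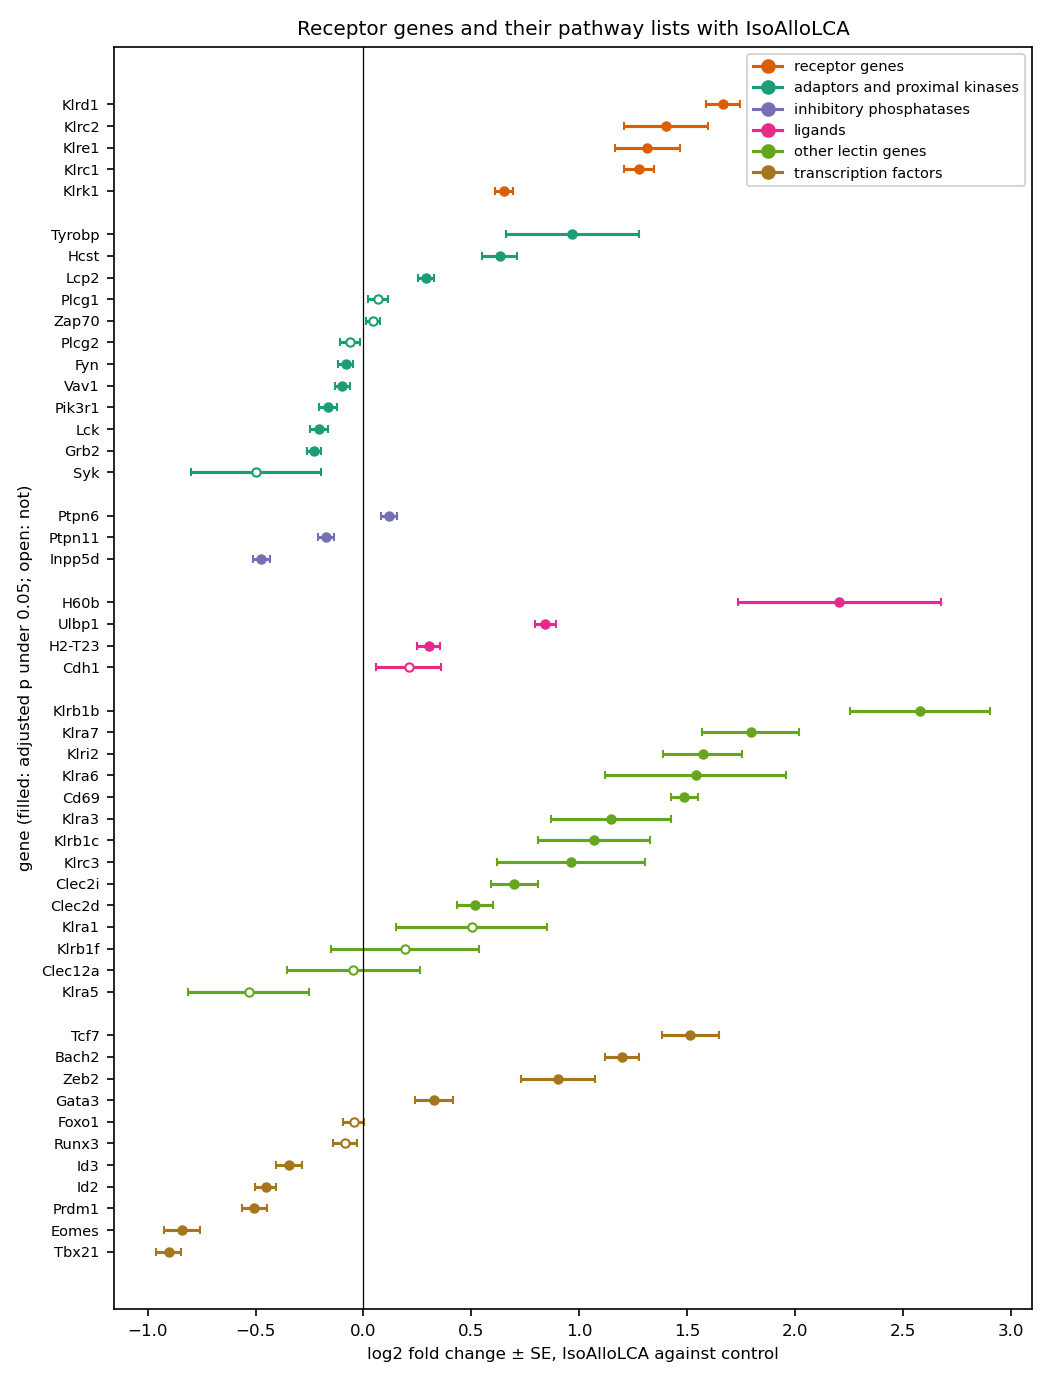
Log2 change of IsoAlloLCA against control (horizontal axis) for the tested receptor genes and the tested genes of the lists around them, 1 row a gene, with bars of 1 SE from the edgeR fit and colours for the lists. Filled points passed an adjusted p under 0.05, and the receptor genes lie between 0.65 (Klrk1) and 1.67 (Klrd1).

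The genes whose group means followed each receptor gene most closely were sought among 8787 or 8788 others with a mean of at least 10 CPM, by Pearson's r of log2 CPM over the 8 group means. For Klrd1 they were Pnpla7 (r = 0.99), Trappc4 (0.99) and Eif2ak3 (0.99), and over the 7 groups without IsoAlloLCA these were 0.70, 0.71 and 0.67. For Klrc1 and Klrc2 the closest gene was Zfp959 (0.99 each, and 0.94 each without IsoAlloLCA), followed by Cdadc1 and Ralgds for Klrc1 and by Rabep2 and Pde4d for Klrc2. Fam214a, Ikbke and Col4a3bp (0.99 each, 0.87, 0.85 and 0.89 without) were closest to Klrk1, and Zfp382, Tmem63b and Zmym6 (0.99, 0.98 and 0.98, then 0.94, 0.92 and 0.89) to Klre1. Among the receptor genes themselves r lay between 0.90 and 0.98 over 8 groups and between 0.21 (Klrd1 with Klre1) and 0.88 (Klrc1 with Klrc2) over 7. All of these values describe 8 or 7 points that come from the same libraries. Klrc1 and Klrc2 also share sequence, and 38.1% of the 50-base words of Klrc1 occurred in some GENCODE transcript of Klrc2. These were 738 words, more than the 668 of the counted Klrc2 transcript, so not all of them lie in that transcript. Of its 668 words, 103 (15.4%) occurred in a GENCODE transcript of Klrc1. Reads divided between Klrc1 and Klrc2 may make their values alike, which was not tested.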

How the data were processed

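RNA was taken from cultures of CD8+ T cells, and libraries were made with an ultra-low-input method, per the labels. The deposited table holds expected counts per gene from HOMER (exon counting, mm10, condensed by gene, raw), per the file headers; 29.4% of the values are not whole numbers, and all are multiples of 0.5. STAR, HOMER and DESeq2 are named in the submitters' processing notes, with no version. Whether counting used strand is not given in these sources. The length of each gene's transcript is a further value that the authors deposited.

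Values were rounded to whole counts and fitted with edgeR 4.0.16 in R 4.3.3 (filterByExpr, TMM factors 0.971 to 1.05, quasi-likelihood test, 1 coefficient a group, all 24 libraries). Whole counts had been assumed when the design was set, and the same test was kept after rounding. Of 24537 genes 13044 were tested, and p-values were adjusted over them by Benjamini-Hochberg. The common biological coefficient of variation was 4.41%. CPM used TMM-scaled totals. Replicates differed beyond counting noise in every group (chi-square per degree of freedom 2.83 to 18.7). On simulated data for LCA against control over 13044 genes, 34.4% of 96 genes changed 1.2-fold and 79.4% of 97 changed 1.5-fold were called. Among the genes tested there, only these were changed, whereas 4765 genes were called with LCA in the data. The p-value that reaches the adjusted threshold therefore differs, and these rates do not describe the real comparison. Intervals and tests cover these libraries only.

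The receptor genes and the lists of adaptors, kinases, phosphatases, ligands, other lectin genes, transcription factors and cell type markers were chosen with earlier results of these data known. Named were all 6 receptor genes, every tested adaptor, kinase, phosphatase and ligand, from the other lists the 3 genes with the smallest p over all groups, and the 3 genes most like each receptor gene. Klrc3, Klri2, Clec12a, Klra5 and the cell type markers with their calls were named outside that rule, after their values were seen. The sum of a further marker list is not reported here. Alternatives were other scalings and filters, DESeq2 1.42.0, a replicate block, other rounding, fits of the 6 libraries compared, and fits without each library. Counts of listed genes under the other scalings and levels with GENCODE lengths were added after seeing the data.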

Additional observations from a re-analysis of the deposited data

How the results depend on the processing

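With IsoAlloLCA against control all 5 tested receptor genes were called under every alternative run, at log2 changes of 1.58 to 1.73 for Klrd1, 1.24 to 1.57 for Klrc2, 1.22 to 1.43 for Klre1, 1.21 to 1.34 for Klrc1 and 0.62 to 0.72 for Klrk1. Against IsoLCA 5 were called too, or 6 of 6 with no filter, which let Klrg1 in. Of 840 values of single genes under an alternative, 791 kept their side of the threshold, 25 lost a call, 24 gained one and 0 changed sign while called. The number of receptor genes called went from 0 to 1 for IsoLCA against control with no filter, from 1 to 2 for TCDCA against control with no filter, DESeq2 or only the 6 libraries compared, from 0 to 1 for IsoLCA against LCA with total-count scaling, from 0 to 1 for TCA against TCDCA with no filter, DESeq2 or only the 6 libraries, and from 2 to 1 for UDCA against LCA with DESeq2 or only the 6 libraries. It also went from 3 to 4 for LCA against control with total-count scaling and to 2 with DESeq2, from 2 to 3 for DehydroLCA against LCA with total-count scaling or a mean of at least 1 CPM, and from 2 to 3 for UDCA against LCA with total-count scaling. The cause was not tested. Leaving out each library in turn gave 0 to 1 for IsoLCA against control, 0 throughout for TCDCA against control, 0 to 1 for IsoLCA against LCA, 1 to 2 for DehydroLCA against LCA, 0 to 3 for UDCA against LCA and 2 to 3 for LCA against control.

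The main fit did not pair libraries by replicate number. In no comparison did every same-numbered pair correlate above 0.1 (r from -0.33 to 0.40). In IsoLCA against LCA and IsoAlloLCA against IsoLCA, however, each library correlated best with its own number. With 3 libraries a group this check cannot exclude a pairing. A replicate block gave 4 receptor genes called for LCA against control, 1 for IsoLCA against control, 2 for TCDCA against control, 3 for UDCA against LCA and 1 for TCA against TCDCA, and the main number elsewhere. Over all genes the block raised the number of calls in every comparison. Calls went from 4765 to 4974 for LCA against control and from 471 to 644 for TCA against TCDCA.

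Over all genes, calls for TCA against control were 57, but 123 with no filter, 103 with DESeq2, 14 with only the 6 libraries and 6 to 114 with a library left out. Without control replicate 2 they were 815 in place of 1284 for IsoLCA, 400 in place of 760 for DehydroLCA, 1692 in place of 2599 for UDCA and 898 in place of 1712 for TCDCA; without LCA replicate 2 they were 2521 in place of 3957 for IsoLCA against LCA and 1189 in place of 2317 for DehydroLCA against LCA. The last fell to 1448 and 1377 without DehydroLCA replicates 1 and 2, DehydroLCA against control to 426 and 460 without DehydroLCA replicates 1 and 3, and TCDCA against control to 1091 and 1105 without TCDCA replicates 1 and 2. TCA against TCDCA went from 471 to 185, 212 and 737 without TCA replicates 1, 2 and 3 and to 246 and 213 without TCDCA replicates 1 and 2. Total-count scaling turned the split of higher to lower calls from 2312 and 2453 to 3120 and 1973 for LCA, from 3986 and 3632 to 4998 and 2828 for IsoAlloLCA, from 663 and 1049 to 1043 and 918 for TCDCA, from 1340 and 977 to 1093 and 1377 for DehydroLCA against LCA, and from 1934 and 1570 to 1565 and 2086 for UDCA against LCA. Depth limits Klrg1 most, then Klrc2 and Klre1, which stand near 1 CPM in control.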
